A study of Mus musculus with 7 samples.

Results

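Genes of T cells, cytotoxic lymphocytes, B cells and neutrophils were examined in microglia sorted from inside and outside WT cortical grafts, as a readout of how far other blood cells were carried along in the sort. The 10 genes were taken by name from the 55341 gene names of the deposited count table. They comprise Cd3e, Cd3g, Trbc2 and Cd8a for T cells, Nkg7 and Gzmb for cytotoxic lymphocytes, Cd79a for B cells, and S100a8, S100a9 and Ly6g for neutrophils. Of these, 2 genes had no count in any library, 3 had none outside the graft, and 4 stayed under 10 counts in every library.

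The libraries were bulk RNA-seq of CD11b+CD45low microglia (the resident macrophages of the brain) from female 5xFAD mice on a C57BL/6 background, with a labelled age of 14 weeks. The 5xFAD line carries human APP and PS1 transgenes with familial Alzheimer's disease mutations, driven by the neuronal Thy1 promoter, and both groups came from such hosts. The 3 inside libraries came from grafts of WT embryonic cortical cells cut out 4 weeks after injection, and the 4 outside libraries from small pieces of cortex close to the transplant, so that the outside tissue was itself near an injection site. Mice were perfused with PBS before dissection. How many animals went into each library is not given in the sources used here, and the p-values below measure the spread between these libraries. The gate is described by reference to an earlier assay, in which antibodies to lineage markers, among them CD3, CD45R, Ly6C and Ly6G, were stained together with CD11b and CD45. That cells positive for them were discarded is not stated for the sort.

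Between 18644807 and 25882122 reads were counted per library. A count of 0 therefore allowed up to 0.118 to 0.160 CPM (counts scaled to a common TMM library size) in single libraries, taking 3 counts as the limit, up to 0.0418 CPM over the 3 inside libraries and up to 0.0331 CPM over the 4 outside ones. Such limits cover counting error only. Microglial transcripts were abundant in every library. The 10 microglial marker genes summed to 43287 to 50026 CPM inside and 48855 to 54979 CPM outside the graft. They include the genes of CD11b and CD45, which are not confined to microglia. Csf1r, the receptor on which microglia depend for survival, had 11900.3 ± 662 CPM inside (SD, n = 3) and 13087 ± 1773 CPM outside (SD, n = 4).

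S100a8 and S100a9 encode the subunits of calprotectin, a calcium and zinc binding protein that fills the cytosol of neutrophils and is also made by some monocytes. Ly6g is the surface antigen by which mouse neutrophils are usually sorted. Cd3e and Cd3g encode signalling chains of the T cell receptor complex, Trbc2 a constant region of its beta chain and Cd8a a co-receptor of cytotoxic T cells. Nkg7 and Gzmb belong to the cytotoxic granules of NK cells and cytotoxic T cells, and Cd79a encodes a signalling chain of the B cell receptor. Healthy cortex holds few of these cells in its parenchyma.

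The 150 bases before the annotated gene starts of the 3 neutrophil genes are shown because these were the members with the highest counts and they were high in the same libraries. The sequences are from RefSeq for GRCm38.p6, written 5′ to 3′ on the strand of the gene. Capitals mark matches to TATAAA (the TATA box) and to AGGAAG or its reverse complement (an ETS type motif bound by the myeloid factor PU.1). The third motif searched, TTNNGCAA of the C/EBP type, had no match in these windows.
S100a8, chr3:90668828-90668977, plus strand: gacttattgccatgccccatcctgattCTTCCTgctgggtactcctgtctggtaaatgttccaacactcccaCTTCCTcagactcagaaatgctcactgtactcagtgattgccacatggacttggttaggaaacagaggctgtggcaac
S100a9, chr3:90695722-90695871, minus strand: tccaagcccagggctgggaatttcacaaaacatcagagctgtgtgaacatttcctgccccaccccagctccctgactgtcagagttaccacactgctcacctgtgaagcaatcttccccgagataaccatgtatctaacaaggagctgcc
Ly6g, chr15:75155090-75155239, plus strand: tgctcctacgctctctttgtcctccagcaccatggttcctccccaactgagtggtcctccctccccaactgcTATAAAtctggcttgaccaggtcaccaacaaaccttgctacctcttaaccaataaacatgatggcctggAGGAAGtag
S100a8 held 2 AGGAAG matches, both on the opposite strand, 123 and 78 bases before the gene start. Ly6g held a TATAAA match 78 bases and an AGGAAG match 9 bases before its start. S100a9 held no match. Of 14056 windows of the same length, 6.94% held TATAAA, 5.08% TTNNGCAA and 19.4% AGGAAG on either strand, and of the 7 members with a window 1, 0 and 2 held them.

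In the GRCm38 annotation, S100a8 (ENSMUSG00000056054.9) lies on chromosome 3 at 90668978 to 90670035 on the plus strand and S100a9 (ENSMUSG00000056071.12) on the same chromosome at 90692632 to 90695721 on the minus strand. Ly6g (ENSMUSG00000022582.4) lies on chromosome 15 at 75155240 to 75159126. Cd3e (ENSMUSG00000032093.7) and Cd3g (ENSMUSG00000002033.14) are neighbours on chromosome 9, at 44998740 to 45009627 and 44969572 to 44980431. Nkg7 (ENSMUSG00000004612.9) and Cd79a (ENSMUSG00000003379.7) lie on chromosome 7, at 43437073 to 43438249 and 24897381 to 24902197. Cd8a (ENSMUSG00000053977.13) and Trbc2 (ENSMUSG00000076498.2) lie on chromosome 6, at 71373427 to 71379173 and 41546730 to 41548352, and Gzmb (ENSMUSG00000015437.5) on chromosome 14 at 56258838 to 56262260. Cd3e was the only member that shared exon bases with another gene, the antisense gene Gm48719, and strand was not used in the counting.

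**Figure D1:**
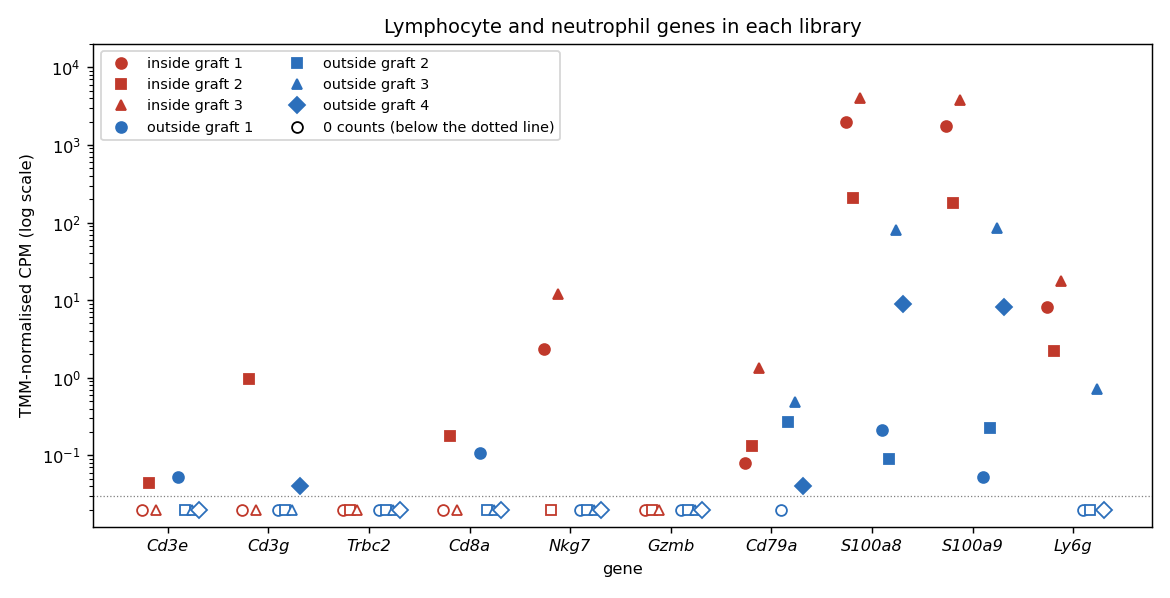
TMM-normalised CPM (log axis) of each of the 10 genes in each of the 7 libraries, red for inside and blue for outside the graft, with open symbols below the dotted line for libraries without a count. S100a8 and S100a9 reached 4077 and 3834 CPM in inside graft 3, and none of the 4 T cell genes reached 1 CPM in any library.

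Transcripts of the 4 T cell genes were at or near 0 in all libraries. Cd3e had 1 count in inside graft 2, 1 count in outside graft 1 and 0 in the other libraries. Trbc2 had 0 counts throughout. Trbc2 is nearly identical to Trbc1, and since reads with several alignments were dropped, those from their shared bases would be missing from both.

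Cd3g was the T cell gene with the most counts, and these sat in a single library. It had 22 counts in inside graft 2, 1 count in outside graft 4 and 0 in the other libraries. Cd8a had 4 counts in inside graft 2, 2 counts in outside graft 1 and 0 elsewhere. The groups overlapped for each of the 4 genes, because inside grafts 1 and 3 held no count of any of them. Summed over the 4 genes, the level was 0.399 ± 0.692 CPM inside (SD, n = 3) and 0.0501 ± 0.0757 CPM outside (SD, n = 4), a difference that was smaller than the spread inside the graft and that was -0.050 CPM without inside graft 2.

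Other T cell genes with counts mainly in inside graft 2 were picked out after their values were seen. Cd2, an adhesion receptor of T and NK cells, had 20 counts in inside graft 2 and 1 count in outside graft 4. Trac and Trbc1, the constant regions of the receptor's alpha and beta chains, had 5 and 4 counts in inside graft 2 and 0 in every other library. Cd3d, the partner of Cd3e and Cd3g in the same complex, was at 0 in all 7 libraries.

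Over the whole list of 19 other T cell genes, 4 passed the filter on low counts. The quasi-likelihood test of edgeR, with p-values adjusted over all genes, called 0 of these at 0.01, as it did 0% of all 15257 genes, and 1 had an unadjusted p below 0.05. Their median log2 fold change inside over outside was 0.43, against -0.0064 for all genes tested. The list summed to 35.7 to 37.3 CPM inside and 43.0 to 59.5 CPM outside the graft. Most of that was Il7r, the interleukin-7 receptor, which is not confined to T cells. Il7r had 24.8 ± 5.15 CPM inside and 46.3 ± 6.36 CPM outside, with every inside library below every outside one, and its log2 fold change was -0.90 ± 0.19 (SE) with an adjusted p of 0.106 in edgeR, 0.0507 in voomWithQualityWeights and 0.00196 in DESeq2, which called 0.308% of all genes lower at 0.01. It was the only gene of the T cell, cytotoxic, B cell and neutrophil lists that passed 0.01 in DESeq2. Cd5, a T cell co-receptor, had 7.10 ± 4.46 CPM inside and 3.58 ± 1.71 CPM outside, a difference that did not pass in edgeR (log2 fold change 0.99 ± 0.50, adjusted p = 0.589).

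The cytotoxic genes differed between themselves. Gzmb had 0 counts in all 7 libraries. Nkg7 had 60 counts in inside graft 1, 0 in inside graft 2 and 284 in inside graft 3, and 0 in each outside library. These are 2.36, 0 and 11.96 CPM inside the graft, and inside graft 2 overlapped with the outside libraries. Pooled over libraries the level was at least 141-fold higher inside than outside, with the outside level set at 3 counts over the group. Nkg7 had counts in 2 libraries only and did not pass the filter on low counts, so it has no test in the comparison across genes. The mean was 4.77 ± 6.34 CPM inside (SD, n = 3), a spread larger than the mean, and 1.18 CPM without inside graft 3.

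Of the 14 other NK and cytotoxic genes, 7 were at 0 in every library. These 7 include Ncr1, the activating receptor NKp46 that defines NK cells, the granzymes Gzma and Gzmk, and Tbx21, the T-bet transcription factor. Prf1, the pore-forming protein of cytotoxic granules, had 18 counts in inside graft 3, 15 in outside graft 3, 11 in outside graft 4 and 0 in the others, inside graft 1 among them. Klrk1, the activating receptor NKG2D, had 2, 0 and 57 counts in inside grafts 1, 2 and 3 and 1, 0, 3 and 26 counts in outside grafts 1, 2, 3 and 4. Of the libraries with Nkg7, inside graft 3 thus held Klrk1 and Prf1, and inside graft 1 had only 2 counts of Klrk1. Neither held Gzmb, Gzma or Ncr1. Outside graft 4, with 26 counts of Klrk1, had no count of Nkg7. The genes named in these sentences were chosen after their values were seen.

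Of the same list 3 genes were tested, with a median log2 fold change of -0.076. In edgeR 0 passed 0.01 or 0.05, and 0 passed 0.01 in voomWithQualityWeights or DESeq2. An unadjusted p below 0.05 in edgeR was found for 2, and for 9.55% of all genes tested. Ccl5, a chemokine of T and NK cells that macrophages also make, had 8.31 ± 6.02 CPM inside and 1.91 ± 1.39 CPM outside (log2 fold change 2.12 ± 0.72, adjusted p = 0.330 in edgeR). Klrd1, the CD94 chain of NK receptors, had 2.62 ± 0.23 CPM inside and 5.73 ± 1.83 CPM outside (log2 fold change -1.13 ± 0.40, adjusted p = 0.354 in edgeR). The summed level of the list was 4.24 to 18.9 CPM inside and 6.56 to 10.4 CPM outside.

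Cd79a was low in both groups and the groups overlapped. It had 2, 3 and 32 counts in inside grafts 1, 2 and 3, and 0, 6, 12 and 1 counts in outside grafts 1, 2, 3 and 4. The level was 0.520 ± 0.718 CPM inside (SD, n = 3) and 0.198 ± 0.224 CPM outside (SD, n = 4), with the highest value of each group in its replicate 3. Without inside graft 3 the difference of the means turned from 0.322 to -0.092 CPM.

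Genes around Cd79a in the B cell list were split between some that were present in all libraries at similar levels and some that were absent. Cd79b, its partner in the B cell receptor complex, had 33.9 ± 5.24 CPM inside and 35.5 ± 2.08 CPM outside (log2 fold change -0.06 ± 0.16, 95% interval -0.42 to 0.29, adjusted p = 0.953 in edgeR). Ighm, the heavy chain of IgM, had 551 ± 25.5 CPM inside and 593 ± 31.4 CPM outside (log2 fold change -0.11 ± 0.10, 95% interval -0.32 to 0.11, adjusted p = 0.823 in edgeR). Against these levels, Ms4a1, the B cell surface antigen CD20, had 0 counts in all 7 libraries, and Igkc, the kappa light chain, had 3 counts in inside graft 3, 2 counts in outside graft 1 and 0 elsewhere. Ms4a1 and Igkc were named after their values were seen. Of the 13 genes of the list 4 were tested, with a median log2 fold change of -0.085. In edgeR 0 passed 0.01 or 0.05, and 0 passed 0.01 in voomWithQualityWeights or DESeq2. An unadjusted p below 0.05 in edgeR was found for 0, and for 9.55% of all genes tested. The list summed to 601 to 673 CPM inside and 648 to 745 CPM outside.

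The neutrophil genes were the members with the highest counts, and they were higher in each inside library than in any outside one. S100a8 had 49754, 4683 and 96778 counts in inside grafts 1, 2 and 3, which are 1953, 207.8 and 4077 CPM. Outside the graft it had 4, 2, 1995 and 220 counts in outside grafts 1, 2, 3 and 4, which are 0.213, 0.089, 80.3 and 8.91 CPM. The levels varied widely within each group, with inside graft 2 far below the other inside libraries and outside graft 3 far above the other outside ones.

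S100a9 followed the same order of libraries down to the lowest pair. It had 44569, 3978 and 91009 counts in inside grafts 1, 2 and 3, and 1, 5, 2135 and 200 counts in outside grafts 1, 2, 3 and 4. Per kilobase of exon, S100a9 was above S100a8 in each inside library, with ratios of 1.19, 1.13 and 1.25, and in outside grafts 3 and 4, with ratios of 1.42 and 1.21. The 2 remaining outside libraries had at most 5 counts of either gene, too few for a ratio. The 2 genes together took 0.364% of all counts in inside graft 1 (Wilson 95% interval 0.362 to 0.367), 0.0365% in inside graft 2 (0.0357 to 0.0373) and 0.808% in inside graft 3 (0.804 to 0.812), against 0.0169% in outside graft 3 (0.0164 to 0.0174) and 0.00171% in outside graft 4 (0.00155 to 0.00188). These intervals treat reads as independent, and cover neither amplification nor the spread between libraries.

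Ly6g was far lower than the calprotectin genes in every library in which it was found. It had 207, 50 and 413 counts in inside grafts 1, 2 and 3, 18 counts in outside graft 3 and 0 counts in outside grafts 1, 2 and 4. The groups did not overlap. Per kilobase of exon the inside means were 3678 CPM for S100a9, 2996 CPM for S100a8, 9.82 CPM for Ly6g and 5.22 CPM for Nkg7, followed by Cd79a at 0.357, Cd3g at 0.0996, Cd8a at 0.0163 and Cd3e at 0.00363 CPM. Ly6g and Nkg7, neighbours in this order, overlapped across the inside libraries, as did Cd79a and Cd3g and the genes below them.

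In edgeR the log2 fold change, inside relative to outside, was 6.53 ± 1.69 for S100a8 (SE, 95% interval 2.78 to 10.28), with means of 2079 ± 1938 CPM inside and 22.4 ± 38.8 CPM outside. It was 6.34 ± 1.71 for S100a9 (95% interval 2.54 to 10.14), with 1920.0 ± 1835 CPM inside and 23.6 ± 41.7 CPM outside. For Ly6g it was 5.58 ± 1.30 (95% interval 2.68 to 8.48), with 9.25 ± 7.65 CPM inside and 0.181 ± 0.362 CPM outside. These were the 18th, 22nd and 36th largest log2 fold changes of the 15257 genes tested.

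Large as these differences were, none passed the threshold of 0.01 on the p adjusted over all genes, which is also the threshold of the study's methods. The adjusted p was 0.166 for S100a8, 0.184 for S100a9 and 0.127 for Ly6g in edgeR, and 0.132, 0.142 and 0.186 in limma's voomWithQualityWeights, the test of the study's methods, which called 0.0197% of all genes at 0.01. DESeq2, which called 1.21% of all genes higher at 0.01, gave 0.0311, 0.0509 and 0.232. All 3 had an unadjusted p below 0.05 in edgeR, as had 9.55% of all genes tested, and all 3 had every inside library above every outside one, as had 5.65% of all genes tested. They passed the filter on low counts through the inside libraries, so these counts describe the members and are not support for the difference. The call also turned on settings of the fit, since without the filter 4 members passed 0.01, namely S100a8, S100a9, Ly6g and Nkg7, and with the newer quasi-likelihood method (legacy=FALSE) Ly6g passed with an adjusted p of 0.00968.

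Single libraries moved the size of the difference. Without outside graft 3 the log2 fold change was 9.34 for S100a8, 9.36 for S100a9 and 10.73 for Ly6g, and without inside graft 3 it was 5.58, 5.34 and 4.75. Without inside grafts 1 and 3 together, left out after seeing that they were the highest, inside graft 2 alone gave 3.21, 2.90 and 3.56 (adjusted p = 0.922, 0.934 and 0.934 in edgeR). With 1 inside library the spread of that fit came from the outside libraries alone, and the lone library was taken to vary like them. In bulk libraries, fewer cells of a type and less RNA per cell cannot be told apart, and this holds for each level given here.

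**Figure D2:**
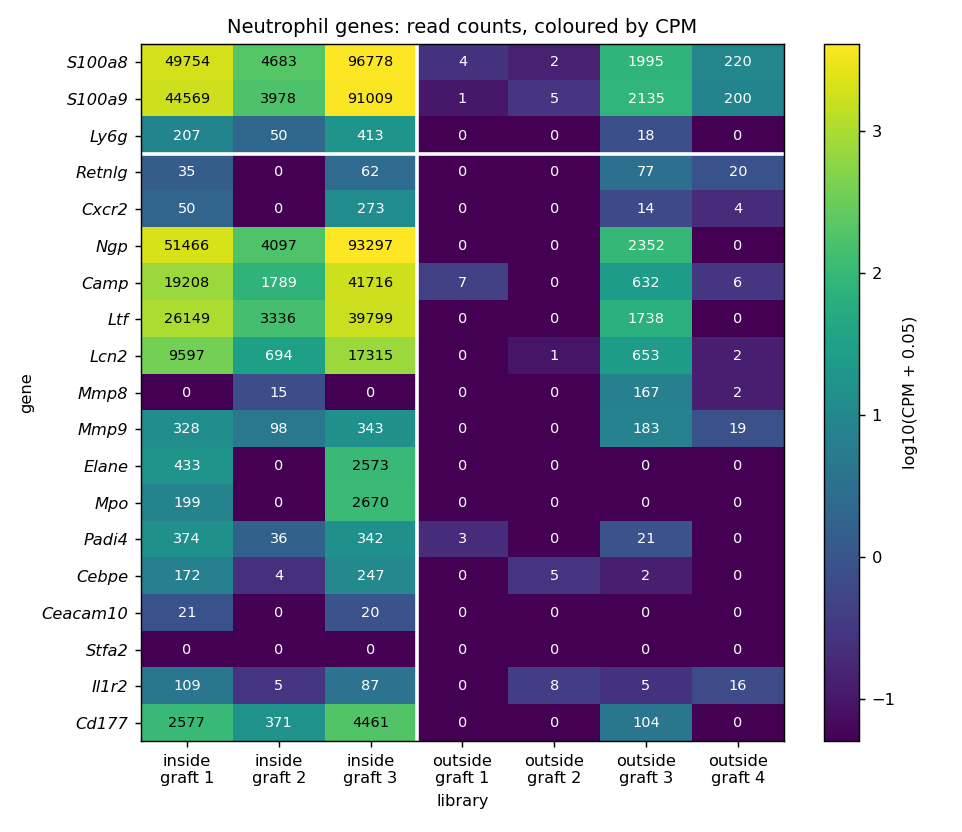
Read counts of the 3 neutrophil members (above the white line) and of 16 further neutrophil genes in each library, coloured by log10(CPM + 0.05). The columns of inside grafts 1 and 3 are the brightest, inside graft 2 and outside graft 3 lie between, and outside grafts 1 and 2 are nearly empty.

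Neutrophils load their granules in a fixed sequence as they mature in the bone marrow. Primary granule proteins such as neutrophil elastase (Elane) and myeloperoxidase (Mpo) are transcribed first, secondary granule proteins such as lactoferrin (Ltf), neutrophilic granule protein (Ngp), the cathelicidin Camp and lipocalin-2 (Lcn2) next, and gelatinase (Mmp9) later, while the chemokine receptor Cxcr2 and Retnlg are typical of mature cells. Those of the 16 other neutrophil genes that are described below are therefore taken broadly in this order. Of the 16, 10 were tested, all 10 had a log2 fold change above 0, where 49.2% of all genes did, and the median was 5.52. Most of these genes passed the filter through the inside libraries where they were high, so their common direction is a description and no support for a difference. In edgeR 0 passed 0.01 or 0.05, while 8 had an unadjusted p below 0.05, as had 9.55% of all genes tested. In voomWithQualityWeights and DESeq2 0 passed 0.01. The list summed to 464 to 8560.3 CPM inside and 0.534 to 239 CPM outside the graft. In it 1 gene (Stfa2) was at 0 throughout, and Elane, Mpo and Ceacam10 had counts inside only. Apart from Ngp, Ltf and the genes most like S100a8, the genes of this list are named here after their values were seen.

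Primary granule genes were found in 2 libraries. Elane had 433 counts in inside graft 1, 0 in inside graft 2, 2573 in inside graft 3 and 0 in each outside library. Mpo had 199, 0 and 2670 counts in inside grafts 1, 2 and 3 and 0 in each outside library. These were the same libraries that held Nkg7. Per 100 counts of S100a8, Elane stood at 0.870 in inside graft 1 and 2.66 in inside graft 3, and at 0 in inside graft 2 and outside graft 3, where S100a8 had 4683 and 1995 counts. Most of the Elane and Mpo counts thus came from inside graft 3.

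Secondary granule genes accompanied S100a8 in all 3 inside libraries and in outside graft 3. Ngp, the most abundant gene of the list, had 51466, 4097 and 93297 counts in inside grafts 1, 2 and 3, 2352 in outside graft 3 and 0 in the other outside libraries. Ltf had 26149, 3336 and 39799 counts inside, 1738 in outside graft 3 and 0 in the other outside libraries. The log2 fold change was 6.42 ± 2.03 for Ngp (adjusted p = 0.288 in edgeR) and 5.75 ± 1.83 for Ltf (adjusted p = 0.291 in edgeR). Relative to S100a8, Ngp stood at 103, 87.5 and 96.4 counts per 100 in inside grafts 1, 2 and 3 and at 118 in outside graft 3, while outside graft 4, with 220 counts of S100a8, held none. At the ratio of inside graft 3 it would have held 212 counts of Ngp.

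Outside graft 4 therefore had calprotectin transcripts without most of the granule genes. It had 0 counts of Ltf, 6 of Camp, 2 of Lcn2 and 0 of Cd177. Its 0 counts of Ly6g are not such a case, since the ratio of inside graft 3 would have given 0.939 counts. It did hold 20 counts of Retnlg, 4 of Cxcr2 and 19 of Mmp9. The S100a9 to S100a8 count ratio there, 90.9 per 100, lay within the 84.9 to 94.0 of the inside libraries.

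Among genes of later stages, Cxcr2 had 50, 0 and 273 counts in inside grafts 1, 2 and 3 and 0, 0, 14 and 4 counts in outside grafts 1, 2, 3 and 4, highest in inside grafts 3 and 1 as S100a8 was (log2 fold change 4.55 ± 1.63, adjusted p = 0.366 in edgeR). Retnlg had a different order of libraries. It had 35, 0 and 62 counts in inside grafts 1, 2 and 3 and 0, 0, 77 and 20 counts in outside grafts 1, 2, 3 and 4, so that outside graft 3 was the highest. Its log2 fold change was 0.43 ± 1.64 (95% interval -3.22 to 4.09, adjusted p = 0.974 in edgeR). Per 100 counts of S100a8 it stood at 0.0703 and 0.0641 in inside grafts 1 and 3 and at 3.86 and 9.09 in outside grafts 3 and 4. Mmp9 was highest in inside grafts 3 and 1, at 14.4 and 12.9 CPM against 7.36 CPM in outside graft 3, but per 100 counts of S100a8 it stood at 0.659, 2.09 and 0.354 in the inside libraries and at 9.17 and 8.64 in outside grafts 3 and 4. Mmp8, the neutrophil collagenase, had 15 counts in inside graft 2, 167 in outside graft 3 and 2 in outside graft 4, and 0 in inside grafts 1 and 3, where S100a8 was highest.

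Ly6g itself stood at 0.416, 1.07 and 0.427 counts per 100 of S100a8 in inside grafts 1, 2 and 3 and at 0.902 in outside graft 3. Inside graft 2 and outside graft 3 thus had more Ly6g for their S100a8 than the libraries with Elane and Mpo. The ratios are descriptions of single libraries and no test of them was made.

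**Figure D3:**
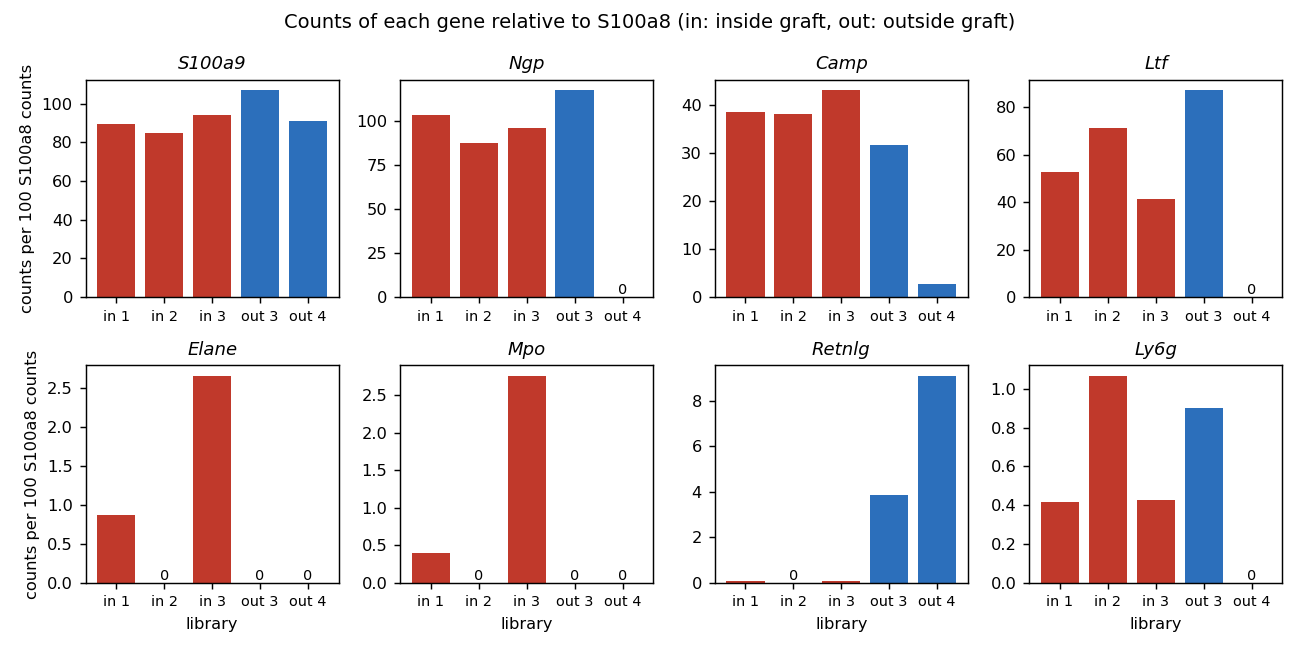
Counts of 8 neutrophil genes per 100 counts of S100a8 (linear axes from 0) in the 5 libraries with at least 200 counts of S100a8, red for inside (in) and blue for outside (out) the graft. S100a9 is close to level across the 5 libraries, Ngp and Ltf are missing in outside graft 4, Elane and Mpo are found in inside grafts 1 and 3 only, and Retnlg is highest in outside grafts 3 and 4.

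Among all 15257 genes tested, the patterns most like S100a8 over the 7 libraries were those of S100a9, Chil3, Camp, Lcn2 and Ltf, with root mean square differences of 0.20, 0.77, 1.16, 1.25 and 1.32 between centred log2(CPM + 0.5) values. S100a9 is the other calprotectin subunit, and Chil3 (Ym1) is a chitinase-like protein of neutrophils and monocytes. Ngp came 6th and Cd177, a neutrophil surface protein, 8th, while Ly6g came 28th with 2.96. Cd3g, Nkg7 and Cd79a, the highest members of the other classes, did not pass the filter, and no likeness was computed for them.

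Some monocyte genes were high in the same libraries as the neutrophil members, and their part in the result was not tested. Of 10 monocyte genes 9 were tested and 8 had a log2 fold change above 0, where 49.2% of all genes did, with a median of 2.44. In edgeR, voomWithQualityWeights and DESeq2 0 passed 0.01, while 6 had an unadjusted p below 0.05 in edgeR, as had 9.55% of all genes tested. Chil3 and Ly6c2 passed the filter through the inside libraries where they were high, so these counts are a description and no support for a difference. The list summed to 83.3 to 1399.8 CPM inside and 9.82 to 36.1 CPM outside. Chil3, the most abundant gene of the list inside the graft, had 14952, 1523 and 28213 counts in inside grafts 1, 2 and 3 and 0, 0, 372 and 34 counts in outside grafts 1, 2, 3 and 4. These are 30.1, 32.5 and 29.2 counts per 100 of S100a8 inside and 18.6 and 15.5 in outside grafts 3 and 4. Ccr2, the chemokine receptor of inflammatory monocytes, had 811, 96 and 1732 counts inside and 76, 307, 168 and 448 outside. Unlike S100a8, it overlapped between the groups (log2 fold change 1.77 ± 0.74, adjusted p = 0.478 in edgeR), and its lowest inside library lay below 3 of the outside ones in counts.

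The targets of the lineage antibodies were split in the same way as the members. Cd3d and Ly6c1 had at most 2 counts in any library, and Cd3e and Cd3g are given above. Ly6c2, which together with the nearly identical Ly6c1 encodes the Ly6C antigen, had 610, 39 and 1701 counts in inside grafts 1, 2 and 3 and 0, 0, 16 and 22 counts outside, without overlap. Its log2 fold change was 6.31 ± 1.23 (95% interval 3.57 to 9.06), with an adjusted p of 0.0907 in edgeR, 0.462 in voomWithQualityWeights and 0.0433 in DESeq2. Ly6g and Ly6c2, the targets that passed the filter, had a median of 5.94 for this fold change. Both passed it through the inside libraries, so the median is a description only. The list of 7 genes summed to 4.97 to 89.1 CPM inside and 0 to 1.37 CPM outside.

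Genes of other blood cells were below S100a8 and S100a9 inside the graft. The erythrocyte and platelet list of 7 genes summed to 4.13 to 20.4 CPM inside and 0.402 to 1.82 CPM outside. Pf4, a platelet chemokine that some macrophages also express, had 10.6 ± 7.87 CPM inside and 0.418 ± 0.427 CPM outside, with every inside library above every outside one. Its log2 fold change was 4.65 ± 0.90, with an adjusted p of 0.0906 in edgeR, 0.124 in voomWithQualityWeights and 6.38e-06 in DESeq2, where it passed 0.01. By contrast, Ppbp, another platelet chemokine named after its value was seen, was at 0 in all libraries. Alas2, an erythroid enzyme of haem synthesis, had 0.582 ± 0.326 CPM inside and 0.546 ± 0.602 CPM outside. The 7 dendritic cell genes summed to 17.9 to 30.2 CPM inside and 7.74 to 24.6 CPM outside. Of these, Itgae, the integrin CD103, had 9.23 ± 2.58 CPM inside and 10.3 ± 4.93 CPM outside. Ccr7, named after its values were seen, had 214 counts in inside graft 3, 1 count in outside graft 1 and 0 elsewhere. Zbtb46, a transcription factor of classical dendritic cells, had 9.39 ± 2.23 CPM inside and 6.46 ± 2.68 CPM outside, where the lowest inside library (8.08 CPM) was just above the highest outside one (8.02 CPM) and the difference did not pass in edgeR (log2 fold change 0.54 ± 0.41, adjusted p = 0.769).

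Set against microglial RNA in the same library, S100a8 stood at 183, 21.8 and 418 per 100 of the microglial chemokine receptor Cx3cr1 in inside grafts 1, 2 and 3, both per kilobase of exon, and at 0.0192, 0.0083, 6.30 and 0.813 in outside grafts 1, 2, 3 and 4. The order of libraries was that of the CPM values. Of the 10 microglial genes, 8 had a log2 fold change below 0, as had 7753 of all 15257 genes tested, and the median was -0.15. In edgeR, voomWithQualityWeights and DESeq2 0 passed 0.01, while 5 had an unadjusted p below 0.05 in edgeR, as had 9.55% of all genes tested. Csf1r had a log2 fold change of -0.14 ± 0.10 (adjusted p = 0.757 in edgeR). P2ry12, a purinergic receptor of homeostatic microglia named after its values were seen, had 4913 ± 899 CPM inside and 6755 ± 679 CPM outside (log2 fold change -0.46 ± 0.12, adjusted p = 0.185 in edgeR and 0.0433 in DESeq2). It was 1 of 3 genes of the list with every inside library below every outside one, as were 766 of all 15257 genes tested. Ptprc, which encodes CD45 and is not confined to microglia, was named after its values were seen. It went the other way, with every inside library above every outside one, as had 5.65% of all genes tested. Inside graft 3, which had the most S100a8, had the lowest summed level of the microglial genes, 43287 CPM. The groups overlapped in this sum, with up to 50026 CPM inside and down to 48855 CPM outside. A relation of the sum to S100a8 across libraries was not tested.

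**Figure D4:**
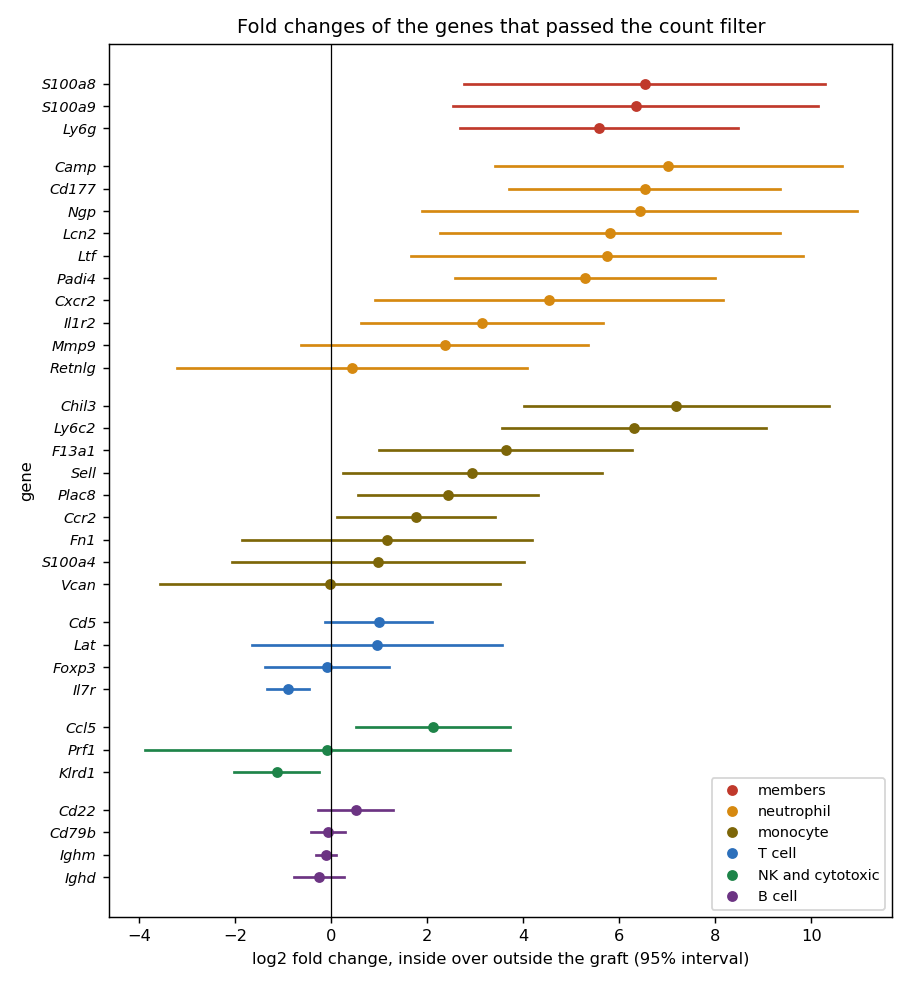
Log2 fold change (inside relative to outside) with its 95% interval from edgeR (3 inside and 4 outside libraries) for the members and for the other genes of 5 cell type lists that passed the filter on low counts. The 3 neutrophil members lie between 5.58 and 6.53 among the neutrophil genes, whereas the B cell genes lie close to 0.

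In the plot of fold changes the intervals of the neutrophil and monocyte genes are wider than those of Ighm and Cd79b, and the former genes varied more between libraries of a group. The lower bound of the interval lay above 0 for S100a8, S100a9 and Ly6g and below 0 for Retnlg, Mmp9, Vcan, Fn1 and S100a4, the last 5 chosen after their values were seen.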

How the data were processed

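Microglia from inside and outside WT grafts in 5xFAD mice were profiled by bulk RNA-seq (SMART-Seq v4 cDNA, Nextera XT libraries, single reads). The authors aligned reads with STAR 2.7.2a to GRCm38.p6 using GENCODE M21, and the deposited values are raw counts from featureCounts 1.6.2 for each gene name, together with the exon length of each gene in bases. Strand was ignored and reads aligned to several places were left out, which lowers genes with near-identical copies. No molecular identifiers were used, so amplified reads are not independent molecules.

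From the deposited counts, CPM on TMM effective library sizes, tests and fold changes on the log2 scale were obtained in R 4.3.3 with edgeR 4.0.16 (glmQLFit and glmQLFTest, robust=FALSE, legacy=TRUE), limma 3.58.1 (voomWithQualityWeights) and DESeq2 1.42.0. The filterByExpr function by group left 15257 of 55341 gene names, and p-values were Benjamini-Hochberg adjusted over them, with a threshold of 0.01 and 0.05 as an alternative. Standard errors are those implied by the F statistic. The edgeR steps were checked on simulated counts. All 9 pairs of libraries of a group differed by more than counting noise (lowest chi-square per degree of freedom 16.6).

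The members and the lists of other marker genes were chosen with earlier results of these data known. Named genes were all 10 members, the lineage antibody targets, the 2 genes of each list with the highest mean CPM, any gene of a list past the threshold and the 5 genes most like S100a8. Some genes that the rule names are not reported here. Genes named beyond that rule are marked in the text as chosen after their values were seen. Other normalizations, filters, tests and settings, the replicate number as a block, and leaving out libraries were tried as alternatives, of which legacy=FALSE and leaving out inside grafts 1 and 3 together were added after seeing the data. Promoter windows came from the RefSeq sequence of GRCm38.p6, in which 7 of the 10 members had one.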

Additional observations from a re-analysis of the deposited data

Results flagged for a closer look

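Among the 4 outside libraries, 7 of the 10 values tested had a single library further from the others than Dixon's limit at 95%, where chance flags about 1 in 20 groups of continuous values. Outside graft 3 stood apart for S100a8 at 80.3 CPM, S100a9 at 85.9 CPM, Ly6g at 0.724 CPM and the summed neutrophil members at 166.9 CPM. These 4 values are not independent, since the members were high in the same libraries, and for Ly6g the other outside libraries had 0 counts, so that any count in the fourth library would stand apart. The other 3 rest on 1 or 2 counts each, with Cd3e at 0.0534 CPM and Cd8a at 0.107 CPM in outside graft 1 and Cd3g at 0.0405 CPM in outside graft 4, where the same holds, with 0 counts in the other outside libraries. For these 4 genes the share that chance flags does not apply. The inside group, with 3 libraries, was not tested in this way.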

How the results depend on the processing

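In edgeR 0 of the 3 members tested passed 0.01, and this count stayed at 0 under the other normalizations, the threshold of 0.05, robust dispersion, DESeq2, voomWithQualityWeights and each library left out (0 to 0). Without the filter on low counts 4 members passed (log2 fold changes of 6.52 for S100a8, 6.33 for S100a9 and 5.57 for Ly6g, and Nkg7 as the fourth), when 190 of 29525 genes did, and with legacy=FALSE 1 did (Ly6g, 5.52), when 40 of 15257 genes did. Of the other markers, 9 neutrophil genes passed without the filter and DESeq2 called 1 T cell gene, Il7r, lower and Pf4, of the erythrocyte and platelet list, higher. With at least 10 counts in every library no member remained, so that setting gives no value.

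When single libraries were left out, the log2 fold change ran from 5.58 to 9.34 for S100a8, from 5.34 to 9.36 for S100a9 and from 4.75 to 10.73 for Ly6g. The difference of summed CPM ran from -0.050 to 0.549 for T cell, 1.18 to 7.16 for cytotoxic, -0.092 to 0.543 for B cell and 2002 to 5773 for neutrophil members. Whether the replicate numbers shared by the groups pair the samples is not known. Same-numbered libraries correlated at -0.051, 0.083 and 0.085. Differently numbered ones ran from -0.171 to 0.092, a range that holds all of these values, so the correlations cannot decide it. In the fit with a replicate block, without outside graft 4, the log2 fold changes were 8.52, 8.26 and 6.07 for S100a8, S100a9 and Ly6g (adjusted p = 0.0710, 0.0860 and 0.0996 in edgeR), and 0 members passed 0.01. The 3 and 4 libraries and the filter on low counts set what could be tested, and the limit of 3 counts set how a count of 0 was read.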
